A study of Homo sapiens with 12 samples.

Results

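RNF145, a membrane-bound ubiquitin ligase of the endoplasmic reticulum, and the lysophospholipid acyltransferase genes LPCAT1, LPCAT2, LPCAT3, LPCAT4, MBOAT1, MBOAT2 and MBOAT7 were read across 12 Affymetrix arrays of SH-SY5Y cells. SH-SY5Y is a human neuroblastoma line that is often used as a neuron-like model. The samples fell into 4 groups of 3 arrays by their labels: oligomeric amyloid-β (Ab in the labels, the peptide of Alzheimer plaques) with an incubation of 6 h, the control of 6 h, fibrillar amyloid-β with an incubation of 24 h, and the control of 24 h. Form and hours are confounded, and from the labels the hours could be peptide ageing or cell exposure. The labels give no dose, and what the controls received is stated only as control. No label calls the replicates separate cultures, so p-values cover only the spread of these samples, which may be technical.

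RNF145 was chosen because its signal was lower in fibrillar samples than in their controls, and the acyltransferase genes were chosen by name. Of the 8 genes, 7 had probe sets annotated to a single gene symbol, 18 probe sets among the 41091 of this kind and the 54613 that were not controls. MBOAT2 was not analysed here. Tests used probe sets whose 12-array mean reached the median level (log2 3.78, a signal of 13.8), which were 14 of the 18 and 27307 in all. Values are log2 MAS5 signals, in which a difference of 1 is a doubling, and a probe set's level can be compared only with its own level in other samples. Differences were tested with limma across all kept probe sets, and a Benjamini-Hochberg adjusted p under 0.05 was called.

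Membranes are remodelled by removing a fatty acyl chain from a phospholipid and adding another, and the lysophospholipid acyltransferases carry out the adding step. They differ in the head group and the acyl chain they use, and so set how saturated a membrane is. RNF145 is known as a target gene of the oxysterol receptor LXR. In mouse liver it was described to act on SCAP, the escort of the SREBP transcription factors, and in human cells on ADIPOR2, a sensor of membrane saturation.

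RNF145 and LPCAT1, the members that the results turn on, lie on chromosome 5, and the 250 bases before a start of each are shown because their signals were lower together with fibrils. Both are RefSeq sequences of GRCh38.p14, on the minus strand, written from 5′ to 3′. Capitals mark a GC box (GGGCGG, which reads as CCGCCC on the other strand) or an E-box (CACGTG).

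RNF145, chr5:159209554-159209803: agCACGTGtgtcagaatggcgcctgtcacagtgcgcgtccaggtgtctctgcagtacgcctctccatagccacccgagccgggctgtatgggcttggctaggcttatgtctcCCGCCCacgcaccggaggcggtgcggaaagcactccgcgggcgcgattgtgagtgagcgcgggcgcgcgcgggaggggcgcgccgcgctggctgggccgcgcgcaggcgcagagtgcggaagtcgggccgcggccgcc

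LPCAT1, chr5:1523961-1524210: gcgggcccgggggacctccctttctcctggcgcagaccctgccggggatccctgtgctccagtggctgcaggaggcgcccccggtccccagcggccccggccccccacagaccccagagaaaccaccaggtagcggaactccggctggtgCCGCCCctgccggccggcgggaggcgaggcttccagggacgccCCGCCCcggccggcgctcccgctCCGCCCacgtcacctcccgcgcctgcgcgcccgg

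The RNF145 window is the richest in CpG of its 5 start windows in the table, some of which overlap, with 35 CpG and 72% G or C, and the LPCAT1 window holds 28 CpG and 78.8% G or C. An E-box lay at base -248 and a GC box at base -138 of the RNF145 window, counted back from the start. The LPCAT1 window held GC boxes at -100, -57 and -34. Both strands were searched in the 10 windows of the members (none was listed for LPCAT2 or MBOAT1) and in all 35116 windows of the table. The GC box was in 6 of the 10 windows and in 42.6% of all windows, the E-box in 1 of 10 and in 6.34%, the NF-Y box CCAAT in 2 of 10 and in 32%, and the AP-1 site TGANTCA in 1 of 10 and in 6.57%. No window of a member held the nuclear receptor hexamer AGGTCA (12.1% of all windows), the sterol regulatory element core TCACNCCAC (0.883%) or the cyclic AMP response element TGACGTCA (1.65%). A match is a description of letters, not a bound site.

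The arrays had been scaled alike, with medians of 3.89 to 4.12, and 0 pairs of arrays were identical. The label of the cell line was checked by markers: 9 of 11 noradrenergic neuroblastoma genes were kept, among them GATA3 with a mean of 12.11, while TH, the enzyme of catecholamine synthesis, lay below the filter at 0.73. Of the glial, blood or endothelial and epithelial markers, 1 of 5, 1 of 5 and 1 of 3 were kept. The summed noradrenergic level was 14.03 to 14.09 in fibrillar samples and 14.00 to 14.16 in their controls. The 3′ less 5′ signal of GAPDH, a measure of RNA quality, was 0.81, 0.49 and 0.64 in fibrillar replicates 1 to 3, against 0.52, 0.47 and 0.51 in their controls. It was 0.71, 0.66 and 0.80 in oligomeric samples, against 0.83, 0.80 and 0.77 in the 6 h controls. The 3′ less 5′ covariate used below was the mean of the GAPDH value and that of the actin gene ACTB. The ACTB values were 2.34 to 3.25 over the 12 arrays.

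On its brightest probe set RNF145 was lower in every fibrillar sample than in any other sample. It read 10.53, 10.51 and 10.51 with oligomers, against 10.61, 10.51 and 10.58 in the 6 h controls. With fibrils it read 10.08, 10.20 and 9.97, against 10.80, 10.80 and 10.77 in the 24 h controls. The fibrillar samples spread more widely than any other group, and the oligomeric samples overlapped their controls.

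The fibrillar mean was 10.09 ± 0.12 and the control mean 10.79 ± 0.02 (SD, n = 3 each), a difference of -0.70 or 1.63-fold lower signal. This value belongs to the contrast that chose the gene, so it is given without a test. Leaving out each 24 h array in turn gave differences of -0.76 to -0.64. Less RNA per cell and fewer cells of one kind cannot be told apart in such bulk samples. In order of level the 24 h controls (10.79) stood above the 6 h controls (10.57), the oligomeric samples (10.52) and the fibrillar samples (10.09), and of these neighbours only the 6 h controls and oligomeric samples overlapped. The 24 h controls exceeded the 6 h controls by 0.22, or by 0.09 where each array was centred on its median. That centring moved the difference with fibrils to -0.63.

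The other kept RNF145 probe set read 6.96, 7.58 and 7.66 with oligomers, against 7.51, 7.42 and 7.45 in the 6 h controls. It read 7.04, 6.73 and 6.59 with fibrils, against 7.63, 7.29 and 7.49 in the 24 h controls. Its fibrillar samples lay below their controls by 0.69, close to the difference of the brighter probe set, but oligomeric replicate 1 was lower than fibrillar replicate 1. The difference ranged from -0.81 to -0.59 without single 24 h arrays. On this probe set the 24 h controls exceeded the 6 h controls by only 0.01 with overlapping samples, where the brighter one gave 0.22. The third RNF145 probe set lay below the filter and scattered between -1.11 and 3.43 over the 12 arrays with all groups overlapping, so it gives no reading of the gene. Across arrays the 2 kept probe sets correlated at r = 0.77 over 12 arrays and at 0.10 over the 9 without fibrils, a description of arrays that share their scaling and groups.

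**Figure D1:**
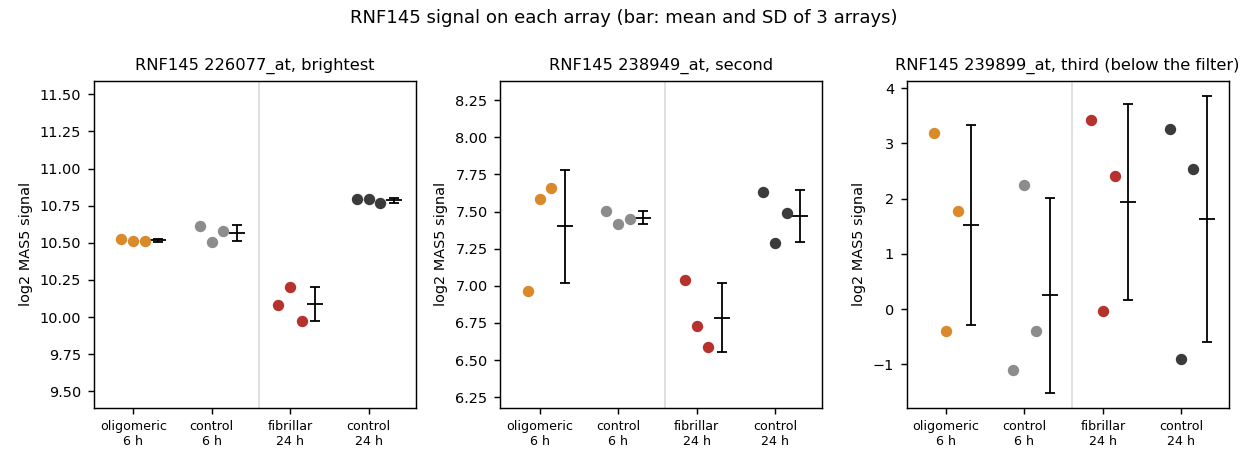
RNF145 signal on each of the 12 arrays for its 3 probe sets, in log2 MAS5 units, with points for arrays and bars for the mean and SD of 3 arrays. The fibrillar arrays of the brightest probe set lie between 9.97 and 10.20 and those of every other group above them, and the third probe set scatters between -1.11 and 3.43.

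With oligomers, the contrast that did not choose it, RNF145 was not called. The difference from the 6 h controls was -0.05 for the brightest probe set (SE 0.07, 95% interval -0.20 to 0.09) and -0.06 for the second (SE 0.16, interval -0.41 to 0.29). The fibrillar difference less the oligomeric one was -0.65, again a value that the choice of the gene fixed in part.

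LPCAT1 fell with fibrils. This enzyme prefers saturated acyl chains, makes the dipalmitoyl phosphatidylcholine of lung surfactant and can also acetylate lyso-platelet-activating factor. Its single probe set read 7.78, 7.92 and 7.93 in fibrillar samples, against 8.75, 8.60 and 8.77 in their controls. In the 6 h samples it read 8.58, 8.59 and 8.81 with oligomers, against 8.69, 8.77 and 8.69 in controls. The fibrillar samples lay below all 9 others, and these 9 overlapped.

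The fibrillar mean of LPCAT1 was 7.88 ± 0.08 and the control mean 8.71 ± 0.09 (SD, n = 3 each). The difference was -0.83 (SE 0.09, 95% interval -1.02 to -0.64, limma adjusted p = 0.000789), or 1.78-fold lower signal, lower in 3 of 3 fibrillar samples. It stayed called in 24 of 24 alternative settings, with adjusted p between 0.000259 and 0.0442, and in 6 of 6 fits without a 24 h array. Among these, the fit with the 3′ less 5′ value as a covariate gave -0.80 (adjusted p = 0.0105). In the ranking of all 27307 kept probe sets by their fall with fibrils, LPCAT1 stood at 476. RNF145 stood at 726, a place that its choice by this fall fixed in part. With oligomers LPCAT1 differed by -0.06 (SE 0.09), and between the 24 h and 6 h controls by -0.01 (SE 0.09), neither called.

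The fall of LPCAT1 with fibrils was larger than its difference with oligomers by 0.77 (difference -0.77, SE 0.13, limma adjusted p = 0.0471). This call was lost in 16 of 23 alternatives, where adjusted p reached 0.227. Of the 12 fits that leave out an array it held only without fibrillar replicate 1 or 2 (adjusted p of 0.019 for each) and was lost without any of the other 10 (up to 0.181). With the replicate number as a block it was 0.0744.

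Of the other acyltransferase probe sets none was called with fibrils. Of the 12 probe sets tested in that contrast 0 were higher and 1, LPCAT1, was lower. Over all kept probe sets 0.282% were called higher and 0.293% lower, 77 and 80 of them, a split of 49.0% higher that became 74.2% where arrays were centred on their median. The median difference of the 12 was 0.03, beside -0.02 over all kept probe sets. Samples were fully apart for 1 probe set that was higher, an LPCAT2 one, and for LPCAT1, which was lower, where 8.47% and 10.4% of all kept probe sets were apart in these directions. Among the remaining 11 the lowest adjusted p was 0.537.

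**Figure D2:**
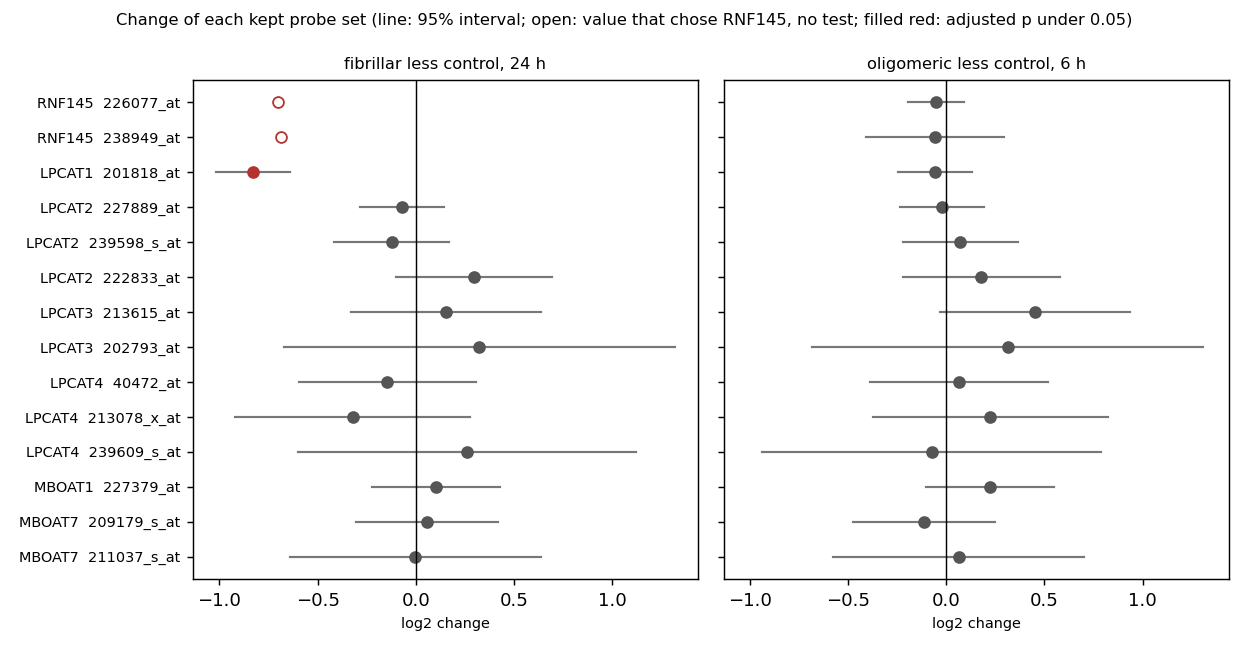
Log2 change of the 14 kept probe sets of the 7 genes, fibrillar less control at 24 h on the left and oligomeric less control at 6 h on the right, with 95% intervals as lines. Open points are the RNF145 values that chose it and carry no interval, and LPCAT1 at -0.83 is the single called point.

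LPCAT2, which makes platelet-activating factor and is known from inflammatory cells, was read by 3 kept probe sets whose differences with fibrils had both signs. The brightest read 8.33, 8.51 and 8.61 with fibrils, against 8.61, 8.44 and 8.62 in controls, a difference of -0.07 (SE 0.10). The second differed by -0.12 (SE 0.14). The third read 7.02, 7.21 and 7.26 with fibrils, against 6.72, 6.99 and 6.89 in controls, so that all fibrillar samples were above all controls, yet the difference of 0.30 (SE 0.19, limma adjusted p = 0.537) was not called. The fourth lay below the filter, with values of -1.41 to 3.79.

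LPCAT4, which was described to use lysophosphatidylethanolamine and lysophosphatidylcholine with unsaturated chains, read 5.19, 4.84 and 5.28 with fibrils, against 5.42, 5.20 and 5.10 in controls on its brightest probe set. The difference was -0.14 (SE 0.21). Its 2 other kept probe sets differed by -0.32 (SE 0.28) and by 0.26 (SE 0.41), with overlapping samples. The 24 h controls lay 0.53 below the 6 h controls on the brightest (SE 0.21, adjusted p = 0.143), which was not called and did not part the groups. The GAPDH 3′ less 5′ values of the 24 h controls were all below those of the 6 h controls. With the mean of the GAPDH and ACTB values as a covariate the LPCAT4 difference was -0.26 (limma adjusted p = 0.729). The part of RNA quality in it was otherwise not tested. A pair of further LPCAT4 probe sets lay below the filter.

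LPCAT3 puts polyunsaturated chains into phosphatidylcholine and is, like RNF145, known as an LXR target. Its brightest probe set read 5.98, 5.80 and 6.27 with oligomers, against 5.11, 5.72 and 5.86 in the 6 h controls. With fibrils it read 5.59, 6.13 and 5.62, against 5.93, 5.49 and 5.46 in the 24 h controls. Groups overlapped in both, and the differences were 0.45 with oligomers (SE 0.23, 95% interval -0.03 to 0.93, not called) and 0.16 with fibrils (SE 0.23). The oligomeric value became 0.22 without control 6 h replicate 1, the lowest of the 12 arrays, and 0.26 with the 3′ less 5′ covariate.

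The other LPCAT3 probe set was near the filter and differed by 0.32 with fibrils (SE 0.47). That value rests on control 24 h replicate 1, which read 2.22 where the other 24 h controls read 4.55 and 3.99 and the fibrillar samples 4.15, 3.65 and 3.92.

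MBOAT1, an acyltransferase for lysophosphatidylethanolamine and lysophosphatidylserine, read 6.92, 6.55 and 6.85 with fibrils, against 6.84, 6.49 and 6.68 in controls (difference 0.11, SE 0.15). It read 6.89, 6.98 and 7.44 with oligomers, against 6.88, 6.82 and 6.94 in controls (difference 0.22, SE 0.15). Neither was called, and oligomeric replicate 3 was the highest of the 12 arrays. Without it the oligomeric difference was 0.05.

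MBOAT7, which puts arachidonic acid into phosphatidylinositol, read 6.44, 6.49 and 6.05 with fibrils on its brighter probe set, against 6.23, 6.17 and 6.40 in controls, a difference of 0.06 (SE 0.17). The 24 h controls lay 0.44 below the 6 h controls with the samples fully apart (SE 0.17, limma adjusted p = 0.121). How many of all kept probe sets were apart between the controls was not counted, here or for RNF145. The MBOAT7 difference between the controls was not called, but became so with arrays centred on their median (-0.57, adjusted p = 0.0316). It was -0.29 without control 6 h replicate 3, and -0.45 with the 3′ less 5′ covariate (adjusted p = 0.397). The other MBOAT7 probe set differed by -0.00 with fibrils (SE 0.30) and by -0.22 between the controls (SE 0.30).

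**Figure D3:**
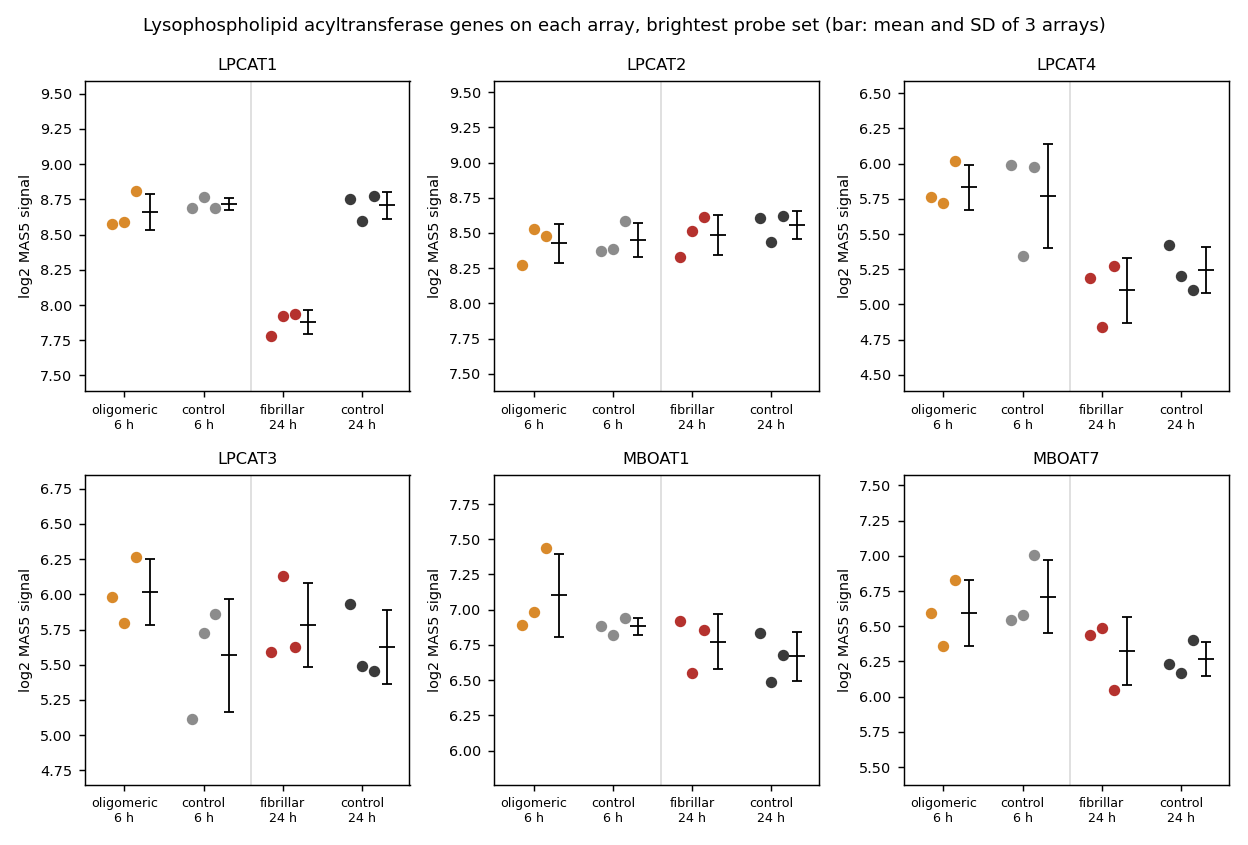
Brightest probe set of each of the 6 acyltransferase genes on the 12 arrays, in log2 MAS5 signal, with points for arrays and bars for the mean and SD of 3 arrays, each panel spanning the same log2 range. LPCAT1 is the gene whose 3 fibrillar arrays, 7.78 to 7.93, lie below all others.

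With oligomers 0 of the 14 member probe sets were called by limma, where 0% of all kept probe sets were called, and 0 of the 14 had an unadjusted p under 0.05, against 955 of all 27307. Their differences ranged from -0.11 to 0.45, with a median of 0.06. Between the 24 h and 6 h controls 0 of the 12 tested were called, where 3.9% of all kept probe sets were called higher and 4.63% lower. An unadjusted limma p under 0.05 was found for 2 of the 12, the LPCAT4 and MBOAT7 probe sets above, against 6530 of all 27307. That comparison shifts by -0.13 for all probe sets where arrays are centred on their median, and 14.4% of its calls are then higher, against 45.7% otherwise. In the fibrillar response less the oligomeric one 0 of 12 were called higher and 1, LPCAT1, lower, where 0.033% of all were called lower. Centring shifts that one by 0.14.

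RNF145 and LPCAT1 were set side by side on each array. Over the 12 arrays they correlated at r = 0.88, and over the 9 arrays without fibrils at 0.08, so the likeness lay in the fibrillar samples. The arrays share their groups and scaling, and the correlation is a description. Among 11773 genes read from their brightest probe set, LPCAT1 had the 6th highest correlation with RNF145. That place, like those of the genes below, was fixed in part by the fall that chose RNF145. For LPCAT2, LPCAT3, LPCAT4, MBOAT1 and MBOAT7 the 12-array values were 0.10, -0.14, 0.29, -0.11 and 0.14.

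**Figure D4:**
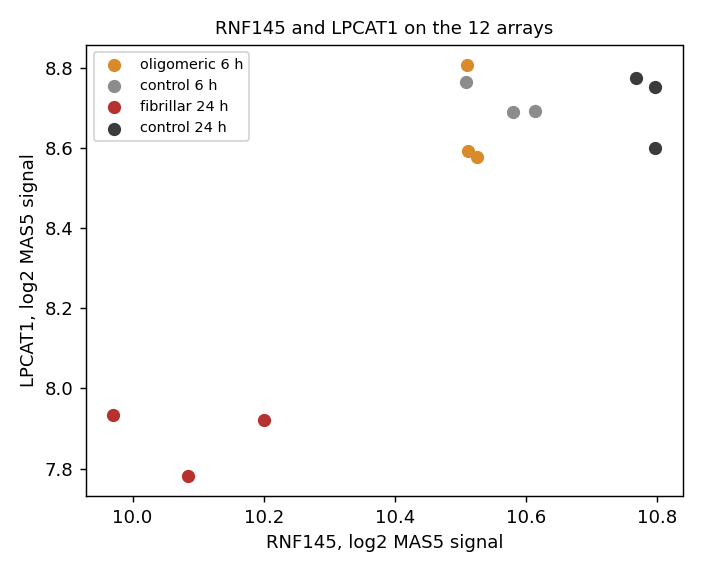
RNF145 (brightest probe set) on the horizontal and LPCAT1 on the vertical axis, both in log2 MAS5 signal, a point per array and a colour per group. The 3 fibrillar arrays stand apart at the lower left, and the other 9 arrays show no shared order (r = 0.08).

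The genes most like RNF145 besides LPCAT1 were SPDYE2 (r = 0.91 over the 12 arrays), SAR1A, a GTPase of the COPII vesicle coat (0.89), ELAC2, a tRNA-processing ribonuclease (0.88), GRIK2, a kainate receptor subunit (0.88), and MTUS1, a microtubule-associated protein (0.88). Without the fibrillar arrays these were 0.77, 0.70, 0.52, 0.70 and 0.81. SPDYE2 averaged 7.04 with fibrils and 8.02 in the 24 h controls, and belongs to a family of near-identical copies, so its probe set may read several. The genes most opposite to RNF145 were SAMD4A, an RNA-binding translational regulator (r = -0.93), PPP1R15B, a subunit of the phosphatase that reverses eIF2α phosphorylation (-0.92), POU3F3, a neural transcription factor (-0.92), CERK, the ceramide kinase (-0.91), GORAB, a Golgi protein (-0.91), and ASXL2, a chromatin protein (-0.90). CERK averaged 9.41 with fibrils and 8.88 in the 24 h controls. Without the fibrillar arrays the 6 values were -0.84, -0.55, -0.70, -0.83, -0.45 and -0.46, in the same order of genes.

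The pathways around these genes were read from 7 lists, with each gene at its brightest kept probe set. Of 102 genes in all, 7 rose with fibrils and 0 fell, where 0.442% of all genes were called higher and 0.263% lower, and the median difference over all 11774 genes was -0.00. All 7 belong to the SREBP2 targets of cholesterol synthesis and uptake, where 7 of 19 measured genes rose, 0 fell and the median difference was 0.37. That count varied with the arrays fitted. It was 0 without control 24 h replicate 1 or 3 or fibrillar replicate 3, and 2 without fibrillar replicate 1 or control 24 h replicate 2. Without fibrillar replicate 2 it was 10 (11 over all the lists). It was 2 to 4 without a 6 h array. It was 0 with a constant prior variance or the groups of the contrast alone.

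HMGCS1, an early enzyme of cholesterol synthesis, read 9.67, 8.31 and 9.23 with fibrils, against 7.65, 7.76 and 7.71 in controls (difference 1.36, SE 0.22, limma adjusted p = 0.0143). Without control 24 h replicate 1 or 3 or fibrillar replicate 3, where the count was 0, HMGCS1 differed by 1.33, 1.36 and 1.28. Over all fits without a 24 h array its difference ranged from 1.06 to 1.74. The other kept HMGCS1 probe set gave 0.99 and was not called (SE 0.35, limma adjusted p = 0.201). MSMO1, which removes methyl groups from sterols, rose by 1.03 (SE 0.17, adjusted p = 0.0149), and SC5D, a sterol desaturase, by 0.42 (SE 0.09, adjusted p = 0.0416). For HMGCS1, MSMO1 and SC5D fibrillar replicate 1 was highest and replicate 2 lowest, the order of the GAPDH 3′ less 5′ values in these samples. The same order held for SQLE, INSIG1 and SCD, described below. With the mean of the GAPDH and ACTB values as a covariate 2 genes of the lists were called. They were HMGCS1 (0.94, limma adjusted p = 0.0284) and MSMO1 (0.75, adjusted p = 0.0447). SC5D, SQLE and INSIG1 were then not called (adjusted p of 0.124, 0.159 and 0.163). The part of RNA quality in these values was otherwise not tested. IDI1, an isoprenoid isomerase, was among the 7 (0.76), but its other kept probe sets gave 0.73, -0.44 and -0.49. It was picked for mention after its values were seen.

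In the machinery that controls SREBP and degrades sterol enzymes 2 of 16 measured genes rose and 0 fell, with a median difference of -0.01. Of all genes 0.442% were called higher and 0.263% lower. The count of 2 became 0 with quantile normalization, no filter, a constant or robust prior variance, the 3′ less 5′ covariate or the contrast's groups alone. In fits that left out an array it was 2 only without fibrillar replicate 2, and otherwise 0. INSIG1, which retains SCAP in the endoplasmic reticulum and is itself an SREBP2 target, read 10.07, 8.71 and 9.58 with fibrils, against 8.41, 8.50 and 8.21 in controls (difference 1.08, SE 0.23, limma adjusted p = 0.0495). SQLE, the squalene epoxidase, rose by 0.63 (SE 0.13, adjusted p = 0.0448). Both are also counted among the SREBP2 targets. Each was called in 1 of 6 fits without a 24 h array, with limma adjusted p up to 0.201 for INSIG1 and 0.165 for SQLE. The other kept probe sets of INSIG1 gave 0.36, not called, and 1.04, called. Those of SQLE gave 0.49, 0.56 and 0.36, none called. For the proteins that RNF145 was described to act on, named for that role after their values were seen, SCAP differed by -0.07 (SE 0.13) and ADIPOR2 by 0.23 (SE 0.12, adjusted p = 0.414). RNF139, a related sterol-sensing ligase, differed by 0.13 (SE 0.13).

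By limma over all arrays 0 of the 8 measured LXR genes were called with fibrils, and their median difference was 0.03. SCD, the stearoyl-CoA desaturase, read 10.03, 9.46 and 9.84 with fibrils, against 9.36, 9.41 and 9.44 in controls (difference 0.37, SE 0.11, adjusted p = 0.139), fully apart but not called. Without fibrillar replicate 2 it was 0.53 and called (adjusted p = 0.00929), and without fibrillar replicate 1 it was 0.25. With the 3′ less 5′ covariate SCD differed by 0.21. SREBF1, which encodes SREBP1, differed by -0.15 (SE 0.21).

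In the list of de novo glycerophospholipid synthesis 0 of 24 measured genes were called, and among other acyltransferase and related genes 0 of 7. Among phospholipase and related genes 0 of 19 were called, and among genes of acyl-CoA supply and related functions 0 of 16. The median differences of these lists were -0.00, 0.10, -0.01 and 0.02, in this order. PTDSS2, a phosphatidylserine synthase, differed by 1.13 with overlapping samples (SE 0.38, adjusted p = 0.182), which was 0.62 without control 24 h replicate 3. PCYT2, of phosphatidylethanolamine synthesis, differed by 0.54 (SE 0.19, adjusted p = 0.209). LPGAT1, an acyltransferase for lysophosphatidylglycerol, read 10.45, 10.31 and 10.43 with fibrils, against 10.02, 10.19 and 10.12 in controls (difference 0.29, SE 0.08, adjusted p = 0.0978), and TAFAZZIN, the cardiolipin remodelling enzyme, differed by -0.56 (SE 0.21, adjusted p = 0.241).

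DDHD1, a phospholipase A1 that acts on phosphatidic acid and phosphatidylinositol, read 7.24, 7.23 and 7.31 with fibrils, against 7.89, 7.62 and 7.62 in controls. Its samples were fully apart and the difference of -0.45 (SE 0.12, adjusted p = 0.0893) was not called, while its other kept probe sets gave -0.33, -0.01 and 0.11. LYPLA1, a lysophospholipase and protein depalmitoylase, differed by 0.22 (SE 0.09, adjusted p = 0.301), and by -0.07 on its other kept probe set. ELOVL5, a fatty acid elongase, differed by 0.26 (SE 0.08, adjusted p = 0.179), by 0.16 without fibrillar replicate 1 and by 0.12 with the 3′ less 5′ covariate, and its other kept probe sets gave 0.64, 0.29 and -0.28. With oligomers 0 genes of any of the 7 lists were called, and the median difference of the SREBP2 targets was -0.05.

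**Figure D5:**
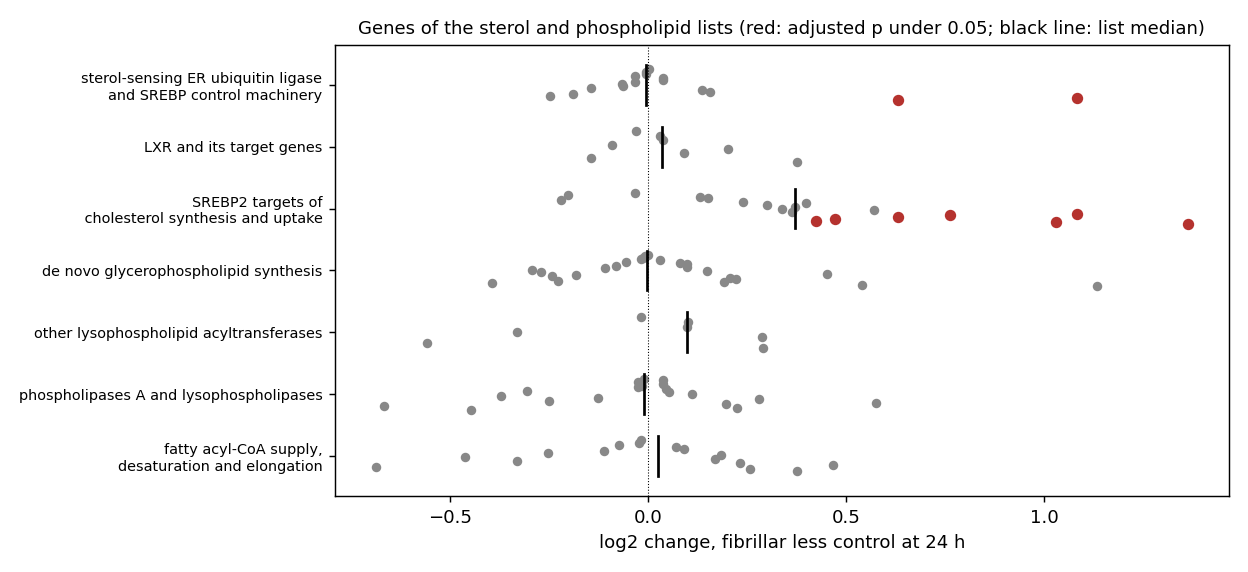
Log2 change with fibrils, fibrillar less control at 24 h, of every measured gene in the 7 lists, a point per gene, with red for an adjusted p under 0.05 and a black line for the list median. The red points lie at or above 0.42, in the SREBP2 targets and, for the shared genes INSIG1 and SQLE, in the SREBP control machinery.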

How the data were processed

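RNA of 12 SH-SY5Y samples was measured on Affymetrix arrays. Deposited were log2 signals per probe set. The submitters' processing notes name MAS5 with no version. Each array has the same trimmed mean signal, 100.03, so the values were used as deposited, and their precision is limited by how few arrays there are (median SE of a difference 0.17). Gene names come from GEO's platform annotation, in which 41091 probe sets carry 1 symbol, 1801 several and 11721 none, and 62 control probe sets were left out. Detection calls were not used here.

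A group-means model was fitted to the 12 arrays over the 27307 kept probe sets in R 4.3.3 with limma 3.58.1, the prior variance following the mean level, and data.table, version 1.17.8, read the files. The procedure was tested on simulated data. Members, lists and tests were chosen with earlier results of these data known, so no p is independent evidence for a pattern already seen. List genes were named by a fixed rule: up to 3 called in each direction by the smallest p, filled to 2 where fewer were called. So were the 6 genes with the highest and the 6 with the lowest correlation with RNF145, leaving out uncharacterised names. Alternatives were quantile normalization, median centring, other filters, log2 of the signal plus 16, other variance priors, array weights, a 3′ less 5′ covariate, fewer samples and a replicate block. Promoters are RefSeq sequences of GRCh38.p14.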

Additional observations from a re-analysis of the deposited data

Results flagged for a closer look

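LPCAT1 was marked because its responses to the 2 preparations differed by a test of the difference itself, the fibrillar difference less the oligomeric one being -0.77 (SE 0.13, limma adjusted p = 0.0471). The preparations also differ in hours, so form and time cannot be told apart. The adjusted p ranged from 0.019 to 0.227 over 23 alternatives.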

How the results depend on the processing

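The call of LPCAT1 with fibrils held in all 24 alternatives run, and 0 oligomeric calls among the members arose in any. The count of 1 member in the difference of responses became 0 with quantile normalization, median centring, no filter, a constant prior variance, the 3′ less 5′ covariate or the replicate block, and ranged from 0 to 1 without single arrays. For the difference, the groups of a single contrast give no value. Between the controls the count of 0 became 1 with median centring. The 7 list genes that rose became 3 with quantile normalization, 2 with no filter, 0 with a constant prior, 4 with a robust prior, 2 with the covariate and 0 with the contrast's groups alone, and 0 to 11 without single arrays. The cause was not tested.

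Of the single member values 444 kept their direction and side, 16 (all of the LPCAT1 difference) lost the call, 1 gained it, 3 moved and 27 small uncalled ones turned sign. LPCAT1 between controls turned to 0.0127 with quantile normalization and 0.00352 with array weights, and spanned -0.0398 to 0.0475 without single arrays. LPCAT2, on its brightest probe set as for all genes here except RNF145, turned with fibrils to 0.00419 with centring and 0.0205 with the covariate, and spanned -0.133 to 0.00715 without single arrays. With oligomers it spanned -0.0739 to 0.0530, and between controls it turned to -0.0255 with centring and -0.0631 with the covariate. LPCAT3 turned between controls to -0.0713 with centring and -0.450 with the covariate, and spanned -0.167 to 0.207 there and -0.0169 to 0.309 with fibrils. LPCAT4 with oligomers turned to -0.00161 with centring and -0.00474 with weights, and spanned -0.149 to 0.173. MBOAT7 spanned -0.0236 to 0.196 with fibrils and -0.230 to 0.0355 with oligomers. The second RNF145 probe set spanned -0.185 to 0.161 with oligomers, and between controls turned to -0.119 with centring and spanned -0.0691 to 0.103.

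Same-numbered samples correlated at 0.03, 0.08 and 0.06 in the fibrillar comparison and at 0.03, 0.09 and -0.03 in the oligomeric one, so the numbers were not taken as pairs. Every fibrillar array matched its own number best, a hint from the data only. With the replicate block LPCAT1 stayed called with fibrils (-0.83, adjusted p = 0.0015), and its difference of responses did not (0.0744). The arrays' number and the dim probe sets of LPCAT3 and LPCAT4, with SE up to 0.47, limit what could be seen.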
